A study of Mus musculus with 24 samples.

Results

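The response of mouse chondrocytes to interleukin-1β (IL-1β) was described gene by gene in cells that shared their medium with dermal fibroblasts. IL-1β-treated co-cultures collected at 36 h (3 libraries) were set against untreated co-cultures of the same time point (3 libraries), which are 6 of the 24 libraries of the study. In both groups wild-type primary chondrocytes, freed from cartilage with collagenase II, grew in the lower chamber of a transwell plate with primary dermal fibroblasts, freed from skin with collagenase I. A transwell insert keeps the cell populations apart while secreted molecules pass. The treated group was given 10 ng/ml of IL-1β once the cells had been attached for 24 h, and the chondrocytes were collected 36 h later for poly(A) RNA sequencing. 2 further pairs of groups, each of 3 libraries with and 3 without IL-1β, were compared only in tests of a difference in response. They were chondrocytes in normal culture, without fibroblasts, at 36 h, and co-cultures at 72 h. Normal cultures at 72 h, with and without IL-1β, entered no comparison. All 24 libraries, however, set the gene filter and the variance behind each p-value. With the 2 main groups fitted alone, 3232 genes were higher and 4870 lower, against 2847 and 4298 over all libraries. Neither the ages of the animals nor any pooling is stated in the labels. The chondrocytes were dissociated cells in a culture plate, and the fibroblasts shared the treated medium.

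IL-1β is an inflammatory cytokine that binds the receptor IL1R1 and, through MYD88 and IRAK kinases, activates NF-kB and MAP kinases. In chondrocytes it is known to induce cytokines, cyclooxygenase 2, nitric oxide synthase and matrix metalloproteinases and to repress the genes of aggrecan and type II collagen, and for this reason it is widely used to model the inflammatory side of osteoarthritis. NF-kB in turn raises its own inhibitors, among them IκBα, which limit the response.

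Levels are given in FPKM, fragment counts scaled by gene length and by the library's mapped fragments, as the authors deposited them. Differences are of log2(FPKM + 1), IL-1β-treated minus untreated, on which a doubling of a well expressed gene is 1 and the change of a gene near 0 is understated. They were tested with limma over 12178 genes with at least 1 FPKM in at least 3 libraries, with Benjamini-Hochberg adjustment, and the threshold was an adjusted p under 0.05. The labels do not state that replicates were separate cultures or animals, so p-values cover only the scatter among these libraries, whose source may be technical. In bulk samples, fewer cells of a type and less RNA per cell cannot be told apart.

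The 6 libraries held between 11553 and 11584 genes at 1 FPKM or more, and libraries of one group correlated across genes at a Pearson r of 0.99756 or higher. The number of reads behind the values is unknown. The first principal component of the 6 libraries held 92.2% of the variance and separated the treated from the untreated libraries. At the threshold 7145 genes passed (58.7% of those tested), of which 2847 (23.4%) were higher and 4298 (35.3%) lower with IL-1β. The balance of directions depended on the scaling: 2254 were higher and 5299 lower after rescaling to TPM, where the median of all genes was -0.13, against -0.06 on the deposited scale. With median-of-ratios scaling 3243 were higher and 3648 lower, with a median of -0.02. At least 2-fold changes were seen in 359 higher (2.95%) and 207 lower genes (1.7%), and in 8554 genes (70.2%) the treated and untreated libraries did not overlap.

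**Figure D1:**
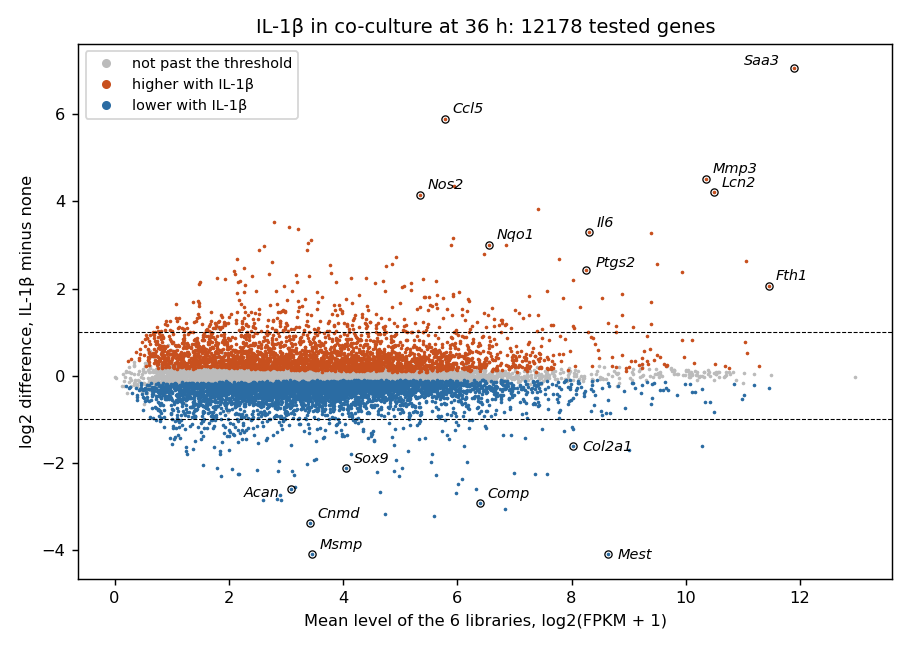
Each point is 1 of the 12178 tested genes, with its mean level over the 6 libraries as log2(FPKM + 1) on the x axis and its log2 difference, IL-1β-treated minus untreated co-culture at 36 h, on the y axis. Dashed lines mark a 2-fold change, and circled genes are named in the text, from Saa3 at 7.05 to Msmp at -4.10.

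Genes of IL-1 signalling changed in both directions with IL-1β. The receptor gene Il1r1 had 54.7, 54.1 and 56.9 FPKM in IL-1β-treated co-cultures, against 91, 86.1 and 89 FPKM in untreated co-cultures, and it fell by 0.67 on the log2 scale. Il1rn, which encodes the secreted receptor antagonist that blocks IL-1 signalling, had 20.4, 20.2 and 22.9 FPKM in IL-1β-treated co-cultures, against 110.1, 109 and 118 FPKM in untreated co-cultures. It fell by 2.36, with every treated library below every untreated one. Of the ligands, Il1a stood at 11.1, 11.3 and 12.6 FPKM in IL-1β-treated co-cultures, against 0.12, 0.12 and 0.07 FPKM in untreated co-cultures, a rise of 3.52 for a gene close to 0 without the cytokine. The accessory receptor gene Il1rap rose by 0.85, Il1rl1, the receptor for IL-33, by 1.09 and Irak3, an inhibitory member of the IRAK family, by 1.13, while the adaptor gene Myd88 fell by 0.34. Of 18 tested genes of IL-1 ligands, receptors and adaptors, 7 rose and 6 fell, with a median difference of -0.09 (all tested genes: 23.4% higher, 35.3% lower, median -0.06; limma, adjusted p = 5.52e-07 or lower for the genes named here).

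Genes of the NF-kB pathway rose as a rule: 19 of 26 tested subunits, kinases and feedback inhibitors were higher and 2 lower (median 0.39). The 3 largest changes were in Zc3h12a, Nfkbia and Nfkbiz. Nfkbia, which encodes IκBα, had 111, 115 and 109 FPKM in IL-1β-treated co-cultures, against 32, 33.9 and 30.9 FPKM in untreated co-cultures. Zc3h12a, whose product is an RNase that degrades cytokine mRNAs, had 71.2, 68.2 and 66.4 FPKM in IL-1β-treated co-cultures, against 13.6, 14.2 and 14.2 FPKM in untreated co-cultures. In both, the treated and untreated libraries were well apart, with differences of 1.76 ± 0.05 and 2.21 ± 0.04 (log2, SE; limma, adjusted p = 5.17e-18 and 2.3e-20). Nfkbiz, a nuclear IκB protein needed for a subset of NF-kB targets, rose by 1.49, the ubiquitin-editing inhibitor gene Tnfaip3 by 0.99, and Traf1, an adaptor of TNF receptors, by 1.19. Of the subunit genes, Nfkb1 rose by 0.51 and Nfkb2 by 0.52. Bcl3, another nuclear IκB gene, stood at 23.7, 26.4 and 22.5 FPKM in IL-1β-treated co-cultures, against 22.5, 20.7 and 21.7 FPKM in untreated co-cultures, a difference of 0.15 that did not pass (limma, adjusted p = 0.11), although it did when the 2 groups were fitted alone (limma, adjusted p = 0.0358).

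Chemokine genes gave some of the steepest rises. 9 of 11 tested CXC and CX3C chemokines were higher and 1 lower (median 1.49), as were 10 of 12 CC chemokines with 1 lower (median 0.71; none lower without treated replicate 1 or without untreated replicate 3). Ccl5, which attracts T cells and monocytes, had 106, 114 and 103 FPKM in IL-1β-treated co-cultures, against 0.59, 0.49 and 1.57 FPKM in untreated co-cultures, and rose by 5.90. Of the neutrophil attractant genes, Cxcl1 had 1221, 1184 and 1229.5 FPKM in IL-1β-treated co-cultures, against 121, 120.1 and 130.4 FPKM in untreated co-cultures. Cxcl2 had 109, 115 and 125 FPKM in IL-1β-treated co-cultures, against 4, 4.95 and 5.28 FPKM in untreated co-cultures. All treated libraries of these 3 genes lay above the untreated ones, and Cxcl3 likewise had 327, 305 and 316 FPKM in IL-1β-treated co-cultures, against 21.7, 21 and 21.7 FPKM in untreated co-cultures. The log2 differences were 3.28 for Cxcl1, 4.36 for Cxcl2 and 3.82 for Cxcl3, with standard errors of 0.08 to 0.18. Cxcl5 was the most abundant chemokine transcript under IL-1β, with 3635, 3569 and 3831 FPKM in IL-1β-treated co-cultures, against 586, 606 and 581 FPKM in untreated co-cultures, and Ccl2, the main monocyte attractant, averaged 1230.1 ± 23.1 FPKM in treated against 206 ± 3.8 FPKM in untreated co-cultures (SD, n = 3). Cxcl12, a homeostatic chemokine made by stromal cells, went the other way and fell by 0.52 (limma, adjusted p = 1.2e-09 or lower for all 7). Because Cxcl1, Cxcl2, Cxcl3, Ccl5, Ccl2 and their neighbours come from tandem gene clusters, reads of near-identical stretches could have been split between family members, which the sources used here do not describe.

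**Figure D2:**
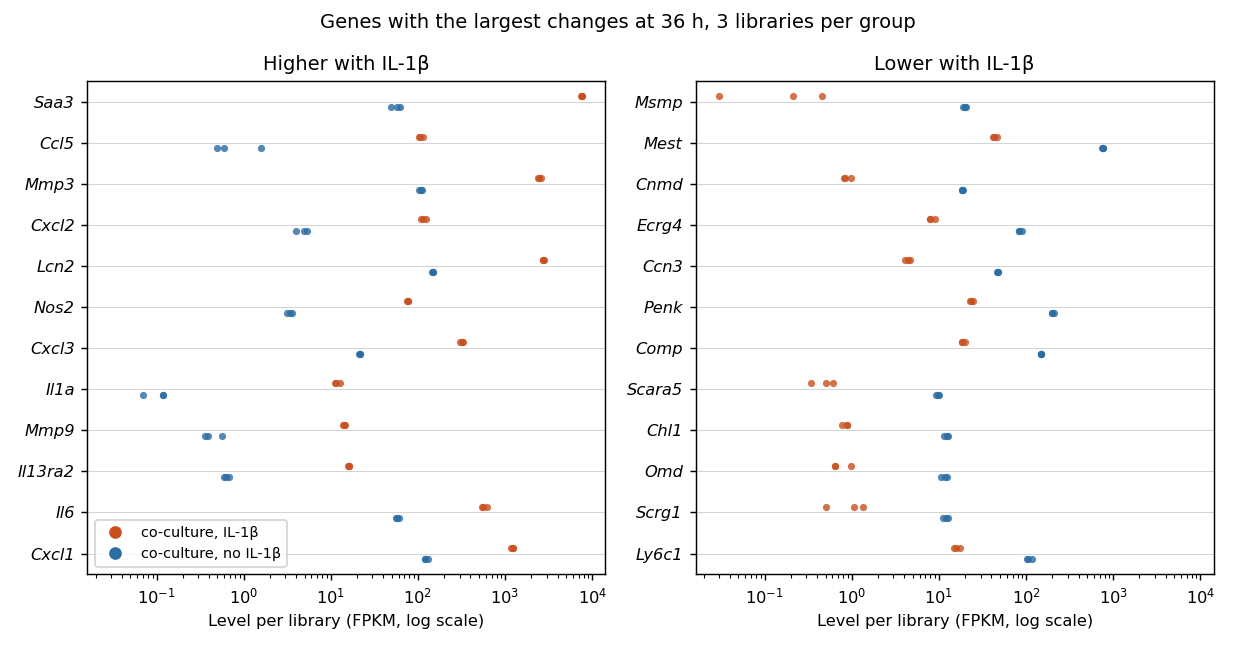
Level of each of the 12 most raised (left) and 12 most lowered genes (right) in the 3 IL-1β-treated (orange, upper row of each gene) and 3 untreated co-cultures (blue, lower row) at 36 h, in FPKM on a log axis, 1 point per library. Treated and untreated libraries are apart in all 24 genes, and the value of 0 in 1 treated library of Msmp is drawn at 0.03.

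To show the stretches of DNA in front of genes that rose together, the 250 bases before the annotated start were taken from RefSeq's promoter table (GRCm38.p6), which held 9 of the 12 most raised genes. They were searched on both strands for the κB consensus, for AP-1 (TGANTCA) and for C/EBP (TTGCNNAA). Of these 9, 4 held a κB match, 4 an AP-1 match and 4 a C/EBP match. Over all 27025 promoters in the table the shares were 3.75%, 6.87% and 9.55%, and over the 9757 promoters of tested genes 4.42%, 4.19% and 7.28%. Among 269 promoters of genes raised at least 2-fold, 7.43%, 9.29% and 12.3% held them, and among 147 of genes lowered at least 2-fold, 5.44%, 7.48% and 10.2%. Of the 7 promoters held for the 12 most lowered genes, none had a κB or AP-1 match and 1 had a C/EBP match. Of the 4 κB matches among the 9, 3 belong to Cxcl1, Cxcl2 and Cxcl3. These are genes of a tandem cluster with the same κB letters, so their matches are not independent. A match describes the letters and is not evidence of binding. The 3 CXC genes are shown with Il6 because these are the 4 with a κB match among the 9, and Nfkbia as the NF-kB inhibitor gene named above. The window before Ptgs2, a raised gene described below, was also searched and is not shown. It held a C/EBP match 69 bases before the start and no κB or AP-1 match. They are written 5′ to 3′ on the gene's strand, with the matches in capitals. The windows are chr5:90890995-90891244 on the + strand for Cxcl1, chr5:90903649-90903898 on the + strand for Cxcl2, chr5:90785851-90786100 on the + strand for Cxcl3, chr5:30012864-30013113 on the + strand for Il6 and chr12:55492648-55492897 on the - strand for Nfkbia.
Cxcl1: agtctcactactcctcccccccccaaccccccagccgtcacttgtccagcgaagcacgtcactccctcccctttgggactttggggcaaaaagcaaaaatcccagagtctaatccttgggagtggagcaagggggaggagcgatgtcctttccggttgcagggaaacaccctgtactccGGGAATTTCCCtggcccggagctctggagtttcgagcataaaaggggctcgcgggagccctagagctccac
Cxcl2: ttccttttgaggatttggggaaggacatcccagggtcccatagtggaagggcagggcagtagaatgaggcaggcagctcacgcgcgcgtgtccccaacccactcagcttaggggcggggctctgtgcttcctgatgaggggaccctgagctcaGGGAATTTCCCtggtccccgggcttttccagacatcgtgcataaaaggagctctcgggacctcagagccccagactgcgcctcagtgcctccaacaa
Cxcl3: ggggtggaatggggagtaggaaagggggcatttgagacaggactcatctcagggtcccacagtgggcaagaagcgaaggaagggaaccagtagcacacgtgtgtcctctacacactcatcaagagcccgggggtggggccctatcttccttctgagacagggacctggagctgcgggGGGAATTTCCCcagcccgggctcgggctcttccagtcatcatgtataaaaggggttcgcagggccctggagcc
Il6: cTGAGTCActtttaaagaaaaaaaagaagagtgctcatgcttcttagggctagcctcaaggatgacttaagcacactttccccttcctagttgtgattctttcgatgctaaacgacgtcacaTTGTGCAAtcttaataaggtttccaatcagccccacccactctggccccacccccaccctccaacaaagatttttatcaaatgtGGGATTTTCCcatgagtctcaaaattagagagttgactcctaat
Nfkbia: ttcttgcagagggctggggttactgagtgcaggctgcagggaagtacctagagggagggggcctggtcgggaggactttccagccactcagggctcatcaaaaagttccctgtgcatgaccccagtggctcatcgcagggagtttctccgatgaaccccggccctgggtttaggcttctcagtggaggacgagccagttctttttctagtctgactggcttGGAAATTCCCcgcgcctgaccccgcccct
In Cxcl1, Cxcl2 and Cxcl3 the capitals are 2 overlapping κB matches that share 9 bases, beginning 71, 97 and 73 bases before the start. In Il6 the capitals are, in order, an AP-1 match at 249, a C/EBP match at 128 and a κB match at 44 bases before the start, with no overlap, and in Nfkbia a κB match at 29.

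Among cytokines of the IL-6 family, Il6 itself had 557, 550.1 and 622 FPKM in IL-1β-treated co-cultures, against 59.9, 56.2 and 58.2 FPKM in untreated co-cultures. Lif, a cytokine that signals through the same receptor chain gp130, had 108, 105 and 110.4 FPKM in IL-1β-treated co-cultures, against 11.5, 10.5 and 11.4 FPKM in untreated co-cultures. Il11 had 16.2, 16.4 and 19.1 FPKM in IL-1β-treated co-cultures, against 1.39, 1.63 and 1.33 FPKM in untreated co-cultures. All 3 ligands were higher in each treated library than in any untreated one, by 3.29, 3.16 and 2.89 on the log2 scale. Of the receptor genes, Il6st, which encodes gp130, fell by 0.84 and Lifr by 0.63, Il6ra and Cntfr rose by 0.47 and 0.40, and Osmr (0.17) and Il11ra1 (0.03) did not pass (limma, adjusted p = 0.0606 and 0.793). Socs3, a feedback inhibitor induced by this family, stood at 53.8, 52 and 49.4 FPKM in IL-1β-treated co-cultures, against 53.6, 52.7 and 54.1 FPKM in untreated co-cultures, and did not pass (difference -0.05, limma, adjusted p = 0.499). Counted over the family with its receptors, JAK1, STAT3 and SOCS3, 8 of 15 tested genes rose and 4 fell (median 0.38). Csf3, the granulocyte growth factor, rose by 2.34 and Il13ra2, a decoy receptor for IL-13, by 3.38, with 15.9 ± 0.303 FPKM in treated against 0.63 ± 0.0458 in untreated co-cultures (SD, n = 3). Tnfrsf11b, the osteoclast-restraining decoy receptor osteoprotegerin, fell by 0.77 (limma, adjusted p = 0.00256 or lower for the genes that passed).

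Acute phase genes held both the largest rise and the most abundant raised transcript, Saa3, and 11 of 19 tested genes of the list were higher, 3 lower and 5 not past the threshold (median 0.35). Saa3, a serum amyloid A protein made outside the liver, had 7582, 7529 and 7618 FPKM in IL-1β-treated co-cultures, against 48.9, 58.2 and 61.9 FPKM in untreated co-cultures. This was the largest difference of any tested gene, 7.05 ± 0.18 (log2, SE; limma, adjusted p = 2.74e-18), a ratio of mean FPKM of 134. Lcn2, a lipocalin that binds bacterial siderophores, had 2712, 2806 and 2739 FPKM in IL-1β-treated co-cultures, against 146, 149 and 147 FPKM in untreated co-cultures, again without overlap. Hp, which encodes haptoglobin, rose by 2.67 and S100a8, a calcium-binding protein typical of myeloid cells, by 2.40. Serpina3n, itself an acute phase inhibitor in liver, fell by 1.79, and the list also holds Mrgprf, an orphan receptor gene that is no acute phase protein, which fell by 0.94. The metalloreductase gene Steap4 stood at 25.2, 25.4 and 26.4 FPKM in IL-1β-treated co-cultures, against 22.9, 22 and 23.2 FPKM in untreated co-cultures, and did not pass (limma, adjusted p = 0.28, and 0.00173 with the 2 groups fitted alone). In complement, C3, the central component, rose by 2.79 and Cfb, its alternative pathway partner, by 0.94, whereas C4b fell by 1.90 and Clu, a fluid-phase regulator, by 1.30. Of the 20 complement genes tested, 7 rose and 9 fell, with a median of -0.02 whose sign changed with the scaling.

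The window before Saa3 (chr7:46715677-46715926 on the - strand), shown as that of the most raised gene, held a single C/EBP match, 99 bases before the start, and none of the κB or AP-1 letters:
Saa3: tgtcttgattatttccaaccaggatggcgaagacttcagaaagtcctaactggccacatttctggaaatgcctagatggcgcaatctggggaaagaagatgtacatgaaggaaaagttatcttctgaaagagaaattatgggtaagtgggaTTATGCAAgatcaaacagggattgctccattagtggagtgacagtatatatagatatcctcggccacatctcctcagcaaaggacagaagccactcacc
Cebpb, which encodes one of the proteins that recognise the C/EBP sequence, stood at 166, 158 and 155 FPKM in IL-1β-treated co-cultures, against 64.9, 62.2 and 81.6 FPKM in untreated co-cultures, and rose by 1.20. Of the same family, Cebpg fell and Cebpa did not pass. Of 17 tested C/EBP, ETS and other inflammatory factor genes 8 rose and 5 fell (all tested genes: 23.4% higher, 35.3% lower). A link between the match and the rise of Saa3 was not tested.

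Of the genes of prostaglandin synthesis, Pla2g4a rose by 1.51, Ptgs2 by 2.42 and Ptges by 1.88, while the secreted phospholipase gene Pla2g2e fell by 0.75 and Ptges3, a cochaperone with prostaglandin E synthase activity, by 0.33 (limma, adjusted p = 6.68e-05 or lower). Pla2g4a, the phospholipase that releases arachidonic acid, had 191, 182 and 194 FPKM in IL-1β-treated co-cultures, against 66, 67.5 and 64.7 FPKM in untreated co-cultures. Ptgs2, which encodes cyclooxygenase 2, had 508, 500.4 and 538 FPKM in IL-1β-treated co-cultures, against 97.3, 95.6 and 94.2 FPKM in untreated co-cultures. Ptges, the terminal prostaglandin E synthase gene, had 96.8, 93.8 and 94.4 FPKM in IL-1β-treated co-cultures, against 25.6, 24.7 and 24.8 FPKM in untreated co-cultures. Of the 18 tested genes of prostaglandin and leukotriene synthesis and response, 10 rose and 3 fell (median 0.48; 5 fell in TPM or with the 2 groups fitted alone). Of 13 genes of nitric oxide and arginine metabolism, 8 rose and 3 fell (median 0.25). Nos2, the inducible nitric oxide synthase gene, had 76.7, 74.5 and 77.3 FPKM in IL-1β-treated co-cultures, against 3.15, 3.55 and 3.36 FPKM in untreated co-cultures. Ass1, which regenerates arginine, the substrate of the synthase, had 203, 203 and 209.7 FPKM in IL-1β-treated co-cultures, against 24.9, 25.9 and 24.1 FPKM in untreated co-cultures. The arginine importer gene Slc7a2 rose by 1.65 and Arg1, an arginase that uses the same substrate, by 2.24, to 4.7 ± 0.358 FPKM against 0.203 ± 0.0577 in untreated co-cultures. Slc7a1, the other cationic amino acid importer tested, fell by 0.78 (limma, adjusted p = 8.81e-08 or lower).

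Of 15 tested matrix metalloproteinases 8 rose and 4 fell (median 0.32), and of 11 ADAMTS proteases 6 rose and 4 fell (median 0.25). Of all tested genes, 23.4% were higher and 35.3% lower. Mmp3, stromelysin 1, which cleaves aggrecan and activates other metalloproteinases, had 2480.2, 2397 and 2602 FPKM in IL-1β-treated co-cultures, against 107, 104 and 112 FPKM in untreated co-cultures. Mmp9, a gelatinase, had 14.1, 13.9 and 14.5 FPKM in IL-1β-treated co-cultures, against 0.36, 0.39 and 0.56 FPKM in untreated co-cultures. Mmp13, the main collagenase acting on type II collagen, was already high without IL-1β, with 413, 394 and 477 FPKM in IL-1β-treated co-cultures, against 234, 225 and 241 FPKM in untreated co-cultures. All 3 passed without overlap, but the rise of Mmp13 was 0.87 ± 0.14 (SE), against 4.52 ± 0.15 for Mmp3 and 3.41 ± 0.09 for Mmp9. The aggrecanase genes moved apart. Adamts4 stood at 11.1, 12.2 and 11.3 FPKM in IL-1β-treated co-cultures, against 8.07, 8.59 and 8.13 FPKM in untreated co-cultures, and rose by 0.43. Adamts5 stood at 49, 50.4 and 49.5 FPKM in IL-1β-treated co-cultures, against 58.9, 59.1 and 58.3 FPKM in untreated co-cultures, and fell by 0.24. Adamts7, which degrades COMP, rose by 1.95. The inhibitors were split as well, since Timp1 rose by 0.90 while Timp3, which inhibits the aggrecanases, had 65.2, 62.9 and 68.4 FPKM in treated against 317, 313 and 313 FPKM in untreated co-cultures and fell by 2.25 (limma, adjusted p = 0.0053 or lower).

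The window before Mmp3 (chr9:7445572-7445821 on the + strand), shown as that of the most raised protease, held a C/EBP match 148 and an AP-1 match 46 bases before the start, with no overlap and no κB match:
Mmp3: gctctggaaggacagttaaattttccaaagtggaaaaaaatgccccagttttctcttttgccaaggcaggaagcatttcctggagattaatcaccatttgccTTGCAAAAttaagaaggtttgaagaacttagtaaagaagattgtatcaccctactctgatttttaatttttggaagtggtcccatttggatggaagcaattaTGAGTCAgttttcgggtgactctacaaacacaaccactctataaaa
Fosl1, which encodes a FOS-family protein of the AP-1 dimer, stood at 44, 47.2 and 40.2 FPKM in IL-1β-treated co-cultures, against 20.1, 19.4 and 22 FPKM in untreated co-cultures, and rose by 1.06 (limma, adjusted p = 1.14e-09). Its list of immediate early and ERK kinase feedback genes was mixed. Of 31 tested genes 10 rose, 8 fell and 13, Jun among them, did not pass (all tested genes: 23.4% higher, 35.3% lower). A link between the match and the rise of Mmp3 was not tested.

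Most genes of cartilage matrix fell. 7 of 8 cartilage collagen genes fell and none rose (median -1.04), as did 12 of 16 tested genes of aggrecan and other cartilage matrix proteins, with 2 higher (median -1.08). Col2a1, the main fibrillar collagen of cartilage, had 129, 131 and 125 FPKM in IL-1β-treated co-cultures, against 404, 395 and 380.1 FPKM in untreated co-cultures. Acan, the core protein of aggrecan, had 1.44, 1.42 and 1.35 FPKM in IL-1β-treated co-cultures, against 13.9, 13.5 and 13.6 FPKM in untreated co-cultures. Comp, a glycoprotein that organises collagen fibrils, had 18.4, 19.8 and 18.1 FPKM in IL-1β-treated co-cultures, against 150.2, 146 and 149 FPKM in untreated co-cultures. The treated libraries were below the untreated ones in each, with log2 differences of -1.61 for Col2a1, -2.61 for Acan and -2.92 for Comp. Sox9, the transcription factor that drives these genes, had 5.47, 4.94 and 5.29 FPKM in IL-1β-treated co-cultures, against 26.6, 25.8 and 25.9 FPKM in untreated co-cultures, and fell by 2.12. Of its partners, Sox6 fell by 1.02, and Sox5 stood at 6.03 ± 0.279 FPKM in treated and 5.36 ± 0.135 FPKM in untreated co-cultures (SD, n = 3) without passing (limma, adjusted p = 0.138, and 0.0248 with the 2 groups fitted alone). Cnmd, which encodes the angiogenesis inhibitor chondromodulin, fell by 3.39, to under 1 FPKM in each treated library. Col9a1, of the type IX collagen on fibril surfaces, fell by 1.92. Col10a1, the marker of hypertrophic chondrocytes, was the cartilage collagen that did not pass, at 1.49, 1.12 and 1.12 FPKM in IL-1β-treated co-cultures, against 1.14, 1.09 and 1.35 FPKM in untreated co-cultures (limma, adjusted p = 0.868). The higher members of the second list were Prg4, which encodes lubricin, the joint's boundary lubricant, and Epyc, which encodes a small proteoglycan of cartilage. Prg4 had 86.5, 84.9 and 85.8 FPKM in IL-1β-treated co-cultures, against 33.1, 32 and 31.1 FPKM in untreated co-cultures, a rise of 1.39, and Epyc rose by 0.91 (limma, adjusted p = 1.23e-08 or lower for those that passed).

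**Figure D3:**
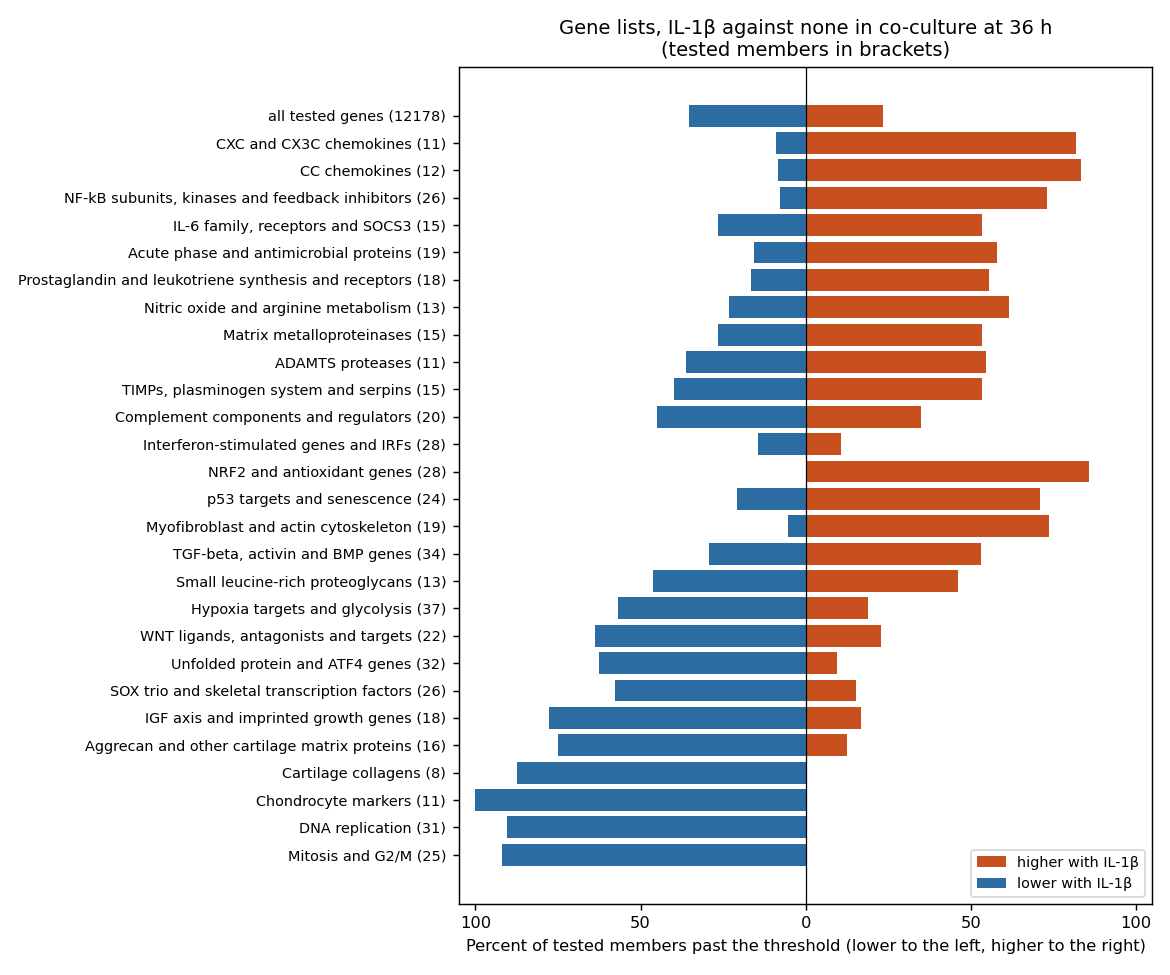
Share of the tested members of each gene list (number tested in brackets) that were higher (orange, right) or lower (blue, left) with IL-1β in co-culture at 36 h at an adjusted p under 0.05. The top row gives all 12178 tested genes, 23.4% higher and 35.3% lower, against which the lists are to be read: 28 NRF2 and antioxidant genes lie to the right and 11 chondrocyte markers entirely to the left.

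Other matrix genes changed in both directions. Among small leucine-rich proteoglycans, which bind collagen fibrils, 6 of 13 tested genes rose and 6 fell (median -0.09). Dcn, decorin, had 1657, 1580.3 and 1658 FPKM in IL-1β-treated co-cultures, against 315, 306 and 317 FPKM in untreated co-cultures, and Lum, lumican, rose by 1.12. In the other direction Ogn, osteoglycin, had 55.3, 57 and 56.2 FPKM in IL-1β-treated co-cultures, against 274, 271 and 266 FPKM in untreated co-cultures. Omd, osteomodulin, fell by 2.84 and Aspn, asporin, fell by 1.61. Eln, the elastin gene, fell by 2.29 and Ccn3, a matricellular growth inhibitor, fell by 3.17, whereas Tnc, tenascin C, rose by 1.17. Cemip, which depolymerises hyaluronan, rose by 2.18 and the hyaluronan synthase gene Has2 fell by 0.61. Sparc, one of the most abundant transcripts, stood at 2911, 2902 and 2907 FPKM in IL-1β-treated co-cultures, against 2860.4, 2887 and 2865 FPKM in untreated co-cultures, and did not pass (limma, adjusted p = 0.783), and neither did Tnfaip6, the hyaluronan-binding protein TSG-6, at 36.9, 34.1 and 38 FPKM in IL-1β-treated co-cultures, against 36.2, 37.4 and 34.7 FPKM in untreated co-cultures (limma, adjusted p = 0.915).

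Growth factor genes were mostly lower where they belong to the insulin-like growth factor axis or are imprinted, and 14 of 18 tested genes of this list fell and 3 rose (median -0.91). Mest, a paternally expressed imprinted gene, had 41.5, 43.2 and 46.6 FPKM in IL-1β-treated co-cultures, against 761, 745 and 760.1 FPKM in untreated co-cultures, a 17.3-fold lower mean level in treated co-cultures. The binding protein gene Igfbp5 fell by 2.59, and the imprinted cell cycle inhibitor gene Cdkn1c by 2.27, while Igfbp7 rose by 1.69 to 1028 ± 36.2 FPKM against 319 ± 6.6 in untreated co-cultures. Of 22 tested WNT genes 14 were lower and 5 higher (median -0.35), and the WNT modulator gene Sfrp2 had 19, 18.1 and 19 FPKM in IL-1β-treated co-cultures, against 109.95, 108 and 108 FPKM in untreated co-cultures. In the TGF-beta family 18 of 34 tested genes rose and 10 fell (median 0.13): the BMP antagonist gene Grem1 rose by 1.95 and Inhba, the activin A subunit, by 1.93, while Bmp4 fell by 1.11 and Tgfbr2 by 1.04. The fibroblast growth factor gene Fgf7 rose by 1.78 and the EGF receptor ligand gene Ereg by 1.67. Outside any list, Msmp had 0.46, 0.21 and 0 FPKM in IL-1β-treated co-cultures, against 18.7, 20.6 and 19.9 FPKM in untreated co-cultures, the largest fall of any named gene. Penk, which encodes the opioid precursor proenkephalin, had 22.6, 23.3 and 24.3 FPKM in IL-1β-treated co-cultures, against 199, 197 and 212 FPKM in untreated co-cultures (limma, adjusted p = 3.65e-10 or lower).

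Of 28 tested NRF2 and antioxidant genes, 24 were higher, 15 of them at least 2-fold, and none was lower (median 1.04), although 1 was lower in TPM, with the 2 groups fitted alone or without treated replicate 1. The 4 that did not pass were Gpx4 (0.14), Sod1 (0.21), Keap1 (-0.12) and Gsta1 (-0.24; limma, adjusted p = 0.138, 0.0616, 0.054 and 0.622). Nqo1, a quinone reductase and standard target of NRF2, had 165, 166 and 169 FPKM in IL-1β-treated co-cultures, against 19.8, 20.4 and 19.5 FPKM in untreated co-cultures. Gsta4, a glutathione S-transferase for lipid aldehydes, had 49.6, 47.1 and 48.5 FPKM in IL-1β-treated co-cultures, against 6.84, 7.61 and 7.57 FPKM in untreated co-cultures. Sod2, the mitochondrial superoxide dismutase that NF-kB also induces, had 109, 114 and 112 FPKM in IL-1β-treated co-cultures, against 33.1, 32.7 and 34 FPKM in untreated co-cultures. In each the treated libraries were at least 3-fold above the untreated ones. Hmox1, heme oxygenase 1, rose by 1.40 and Slc7a11, the cystine importer, by 1.57. Of 13 tested genes of iron uptake, storage and export, 7 rose and 4 fell (median 0.47). Fth1, ferritin heavy chain, rose by 2.06 to 4524 ± 149 FPKM against 1084 ± 69.5 in untreated co-cultures, and Tfrc, the transferrin receptor, by 1.15, while the ferritin receptor gene Scara5 fell by 2.85 and Slc40a1, the iron exporter ferroportin, by 0.64 (limma, adjusted p = 1.93e-05 or lower).

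Genes of p53 and growth arrest rose while those of the cell cycle fell. 17 of 24 tested p53 and senescence genes were higher and 5 lower (median 0.74). Cdkn1a, the cyclin-dependent kinase inhibitor p21, had 449, 426 and 409.5 FPKM in IL-1β-treated co-cultures, against 93.3, 95.4 and 90.8 FPKM in untreated co-cultures. Mdm2, the ubiquitin ligase that removes p53, had 75.6, 70.8 and 74.3 FPKM in IL-1β-treated co-cultures, against 24.6, 26.2 and 23 FPKM in untreated co-cultures. The p53 target gene Ccng1 rose by 1.84, while Trp53 itself fell by 0.36. None of the DNA replication genes rose and 28 of 31 fell (median -0.81; 1 rose with the 2 groups fitted alone), and none of the mitosis genes rose and 23 of 25 fell (median -0.68). Mki67, the proliferation marker Ki-67, had 8.1, 8.36 and 8.94 FPKM in IL-1β-treated co-cultures, against 19.1, 19.4 and 19.4 FPKM in untreated co-cultures. Mcm3, a subunit of the replicative helicase, had 5.92, 5.78 and 6.17 FPKM in IL-1β-treated co-cultures, against 16.8, 17.4 and 17.8 FPKM in untreated co-cultures, and Tk1, thymidine kinase, fell by 1.39. The libraries of both groups were narrowly spread in these genes and did not overlap (limma, adjusted p = 3.24e-06 or lower).

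Genes of unfolded protein, amino acid shortage, hypoxia and glycolysis were lower more often than higher. So were all tested genes, of which 35.3% were lower and 23.4% higher. Of 32 tested genes of the unfolded protein response and of ATF4, the transcription factor of amino acid shortage, 20 fell and 3 rose (median -0.38), but only 1 rose in TPM or without treated replicate 2, treated replicate 3 or untreated replicate 1. Trib3 had 11.7, 10.8 and 11.2 FPKM in IL-1β-treated co-cultures, against 52.2, 53.7 and 50 FPKM in untreated co-cultures, the amino acid transporter gene Slc7a5 fell by 1.60 and Phgdh, the first enzyme of serine synthesis, by 1.20. Of 37 hypoxia and glycolysis genes 21 fell and 7 rose (median -0.17, and 18 fell with median-of-ratios scaling), mostly by little. Eno1, an enolase of glycolysis, fell by 0.60 and Pdk1, a kinase that inhibits pyruvate dehydrogenase, by 0.64. The glucose transporter gene Slc2a1 stood at 109.8, 103 and 104 FPKM in IL-1β-treated co-cultures, against 107, 107 and 105 FPKM in untreated co-cultures (limma, adjusted p = 0.904). The exceptions included Vegfa, the vascular growth factor, which rose by 0.86, and Epas1, which encodes HIF-2α, at 21.6, 22.7 and 21.9 FPKM in IL-1β-treated co-cultures, against 3.78, 3.38 and 3.35 FPKM in untreated co-cultures. Contractile genes rose, with 14 of 19 myofibroblast and actin genes higher and 1 lower (median 0.31; 2 lower in TPM or with the 2 groups fitted alone). Tagln, the actin-binding protein transgelin, had 595, 586 and 575 FPKM in IL-1β-treated co-cultures, against 294, 289 and 286 FPKM in untreated co-cultures (limma, adjusted p = 5.97e-07 or lower for those that passed).

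Interferon-stimulated genes gave few calls: 3 of 28 tested genes rose, 4 fell and 21 did not pass (median -0.10), against 58.7% of all tested genes past the threshold. Isg15, an antiviral ubiquitin-like protein, stood at 5.55, 11 and 4.98 FPKM in IL-1β-treated co-cultures, against 10.3, 10.1 and 8.9 FPKM in untreated co-cultures, and the treated group was split, with the second library at the level of the untreated ones. Without this library 12 genes of the list were lower, and without either of the other treated libraries 2 were. Irf1, an interferon regulatory factor that NF-kB can induce, stood at 10.8, 10.4 and 9.61 FPKM in IL-1β-treated co-cultures, against 9.13, 9.08 and 9.91 FPKM in untreated co-cultures, and did not pass (limma, adjusted p = 0.133). Of 18 tested genes of MHC class I and peptide loading, 7 rose and 2 fell (median 0.12; 1 fell without treated replicate 1 or 3, without untreated replicate 1 or 2, or with median-of-ratios scaling), with H2-T22 higher by 1.00 and Tap1, the peptide transporter, by 0.74.

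The labelled cell type was checked against its markers. The counts of higher and lower markers are to be read against all tested genes, of which 23.4% were higher and 35.3% lower. Of 13 chondrocyte markers, 11 were tested, and all 11 fell (median -1.61). Their summed level was 307 to 316 FPKM in treated and 867 to 893 FPKM in untreated co-cultures, most of it Col2a1 and Col11a1. Matn1 and Snorc, cartilage matrix markers, were below 0.2 FPKM in each of the 6 libraries, and Col1a1, the collagen of fibroblasts and bone, exceeded Col2a1, at 1753 ± 50.3 FPKM in treated and 2390.2 ± 10.1 FPKM in untreated co-cultures (SD, n = 3). Of 18 dermal fibroblast markers, whose summed level was 6407 to 6498 FPKM in treated and 5845 to 5868 FPKM in untreated co-cultures, 7 rose and 9 fell. Most of that sum was Col1a1, Col3a1, Dcn and Lum, which went both ways. On average Dcn stood at 1632 FPKM in treated and 313 in untreated co-cultures, and Lum at 741 and 340. Col3a1 stood at 1716 and 1961 FPKM, and Col1a1 was lower in treated co-cultures as given above. 1 of the 18 averaged under 1 FPKM. Of 18 myeloid markers, 14 were tested, with 5 higher and 5 lower, and their summed level was 76.04 to 88.5 FPKM in treated and 59.1 to 64.3 FPKM in untreated co-cultures. Most of that sum was Lyz2, at 46.3, 58.3 and 51.5 FPKM in treated and 42.4, 39.2 and 39.5 FPKM in untreated co-cultures, while the pan-leukocyte gene Ptprc was at 0.14, 0.12 and 0.08 FPKM in treated and 0.26, 0.16 and 0.31 FPKM in untreated co-cultures. Skeletal muscle markers summed to 303 to 323 FPKM in treated and 299.9 to 342 FPKM in untreated co-cultures, with 3 of 15 tested genes higher and 5 lower (3 lower without treated replicate 1 or without untreated replicate 3). Of 10 endothelial markers, 9 averaged under 1 FPKM over the 6 libraries and Cldn5 was at 0 in each, with a summed level of 5.99 to 6.74 FPKM in treated and 6 to 6.04 FPKM in untreated co-cultures. Synovial markers summed to 548 to 566 FPKM in treated and 606 to 613 FPKM in untreated co-cultures, with 3 of 8 tested genes higher and 3 lower. Of 9 adipocyte markers, 6 averaged under 1 FPKM, Adipoq and Plin1 among them, and the sum was 135.6 to 143 FPKM in treated and 146 to 157 FPKM in untreated co-cultures, with 1 of 4 tested genes higher and 3 lower. Osteoblast and osteoclast markers summed to 88.85 to 92.1 FPKM in treated and 99.6 to 102 FPKM in untreated co-cultures, with 6 of 10 under 1 FPKM on average and Dcstamp at 0 in all 6 libraries (1 of 7 tested genes higher, 2 lower). Keratinocyte markers summed to 8.83 to 10.2 FPKM in treated and 8.06 to 10.02 FPKM in untreated co-cultures, with 7 of 9 under 1 FPKM on average (1 of 4 tested genes higher, none lower). The part of such cells in the changes above was not tested.

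The response in co-culture was tested against that in normal culture at 36 h. The presence of fibroblasts cannot be told apart here from any other difference between the cultures. The IL-1β difference in co-culture minus that in normal culture passed for 847 genes (6.96%). Of these, 576 (4.73%) were more positive and 271 (2.23%) more negative in co-culture. Fitted on the compared groups alone, 1176 were more positive and 617 more negative. At least 2-fold differences numbered 5 positive (0.0411%) and 9 negative (0.0739%). These counts depended on the scale, with 20 positive in TPM and 50 positive and 24 negative as log2(FPKM + 0.1), and leaving out single libraries gave 4 to 11 positive ones. The largest among named genes was in Ptgs2, where IL-1β-treated and untreated levels were 515 ± 19.7 and 95.7 ± 1.57 FPKM in co-culture, against 554 ± 53.1 and 20.5 ± 1.31 FPKM in normal culture (SD, n = 3). The treated levels of both cultures were close and the untreated level was higher in co-culture, so that the rise was smaller there, a difference of -2.27 ± 0.23 (log2, SE; limma, adjusted p = 3.59e-06). Lif showed the same order of untreated levels, with 108 ± 2.8 and 11.1 ± 0.529 FPKM in co-culture, against 88.1 ± 4.28 and 2.82 ± 0.257 FPKM in normal culture, and so did Nos2, with 76.2 ± 1.46 and 3.35 ± 0.2, against 95.3 ± 6.61 and 1.34 ± 0.052 FPKM. Their rises were smaller in co-culture, with differences of -1.38 for Lif and -1.21 for Nos2 on the log2 scale, and that of Tnfrsf9, a costimulatory TNF receptor, differed by -1.33 (limma, adjusted p = 7.69e-05 or lower). Il6 differed by -0.60, and the differences of Lcn2, Ccl5 and Sox9 did not pass (limma, adjusted p = 0.912, 0.563 and 0.894). Those of Saa3 (0.71), Mmp3 (0.60) and Col2a1 (-0.24) passed only with the compared groups fitted alone (limma, adjusted p = 0.000303, 0.00103 and 0.00761, against 0.108, 0.0952 and 0.0505 over all libraries).

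**Figure D4:**
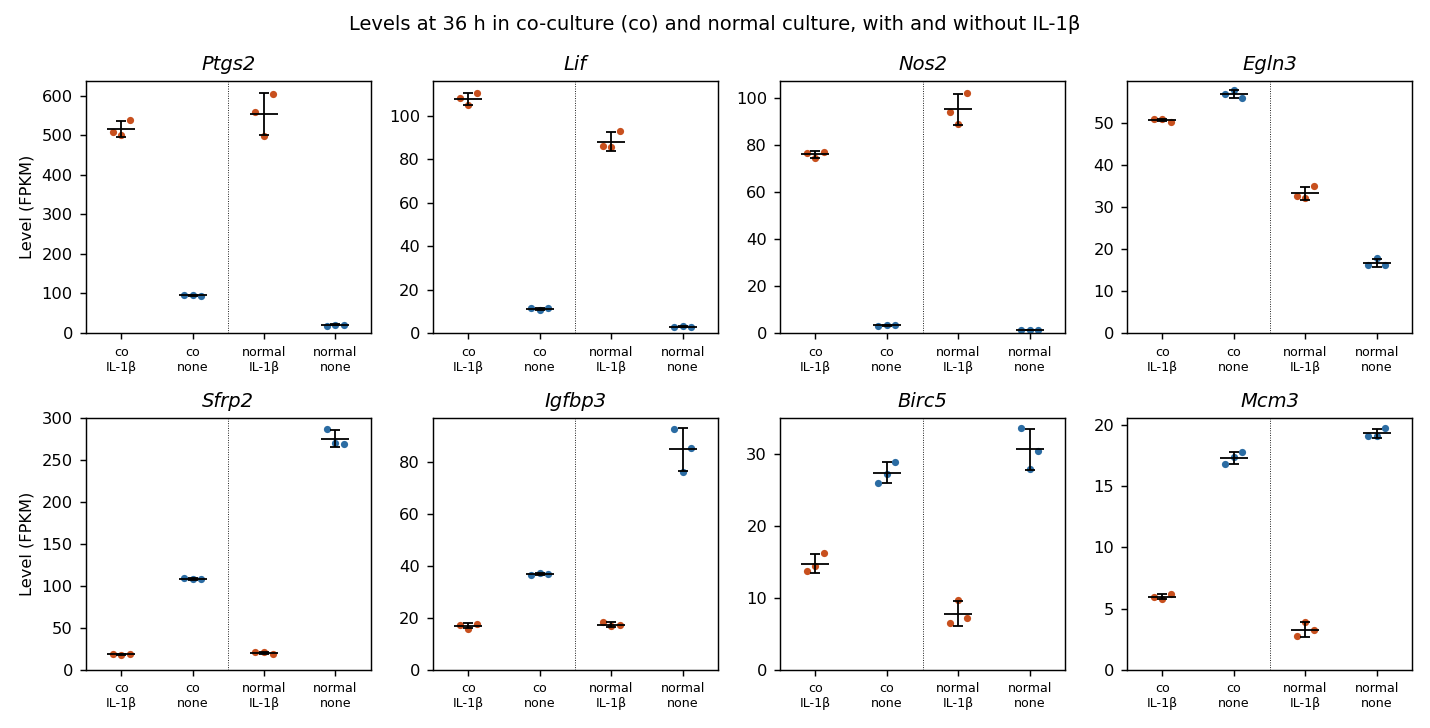
Levels in FPKM of 8 genes at 36 h in co-culture with IL-1β, co-culture without, normal culture with and normal culture without IL-1β. Points are libraries, and bars the mean ± SD of 3. For Ptgs2, Lif and Nos2 the untreated level is higher in co-culture than in normal culture, for Sfrp2 and Igfbp3 it is lower, and for Birc5 and Mcm3 the treated level is higher in co-culture.

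Egln3, which marks HIF proteins for degradation and is itself a hypoxia target, stood in co-culture at 50.7 ± 0.334 FPKM with and 56.9 ± 0.946 without IL-1β, against 33.2 ± 1.52 and 16.7 ± 0.907 FPKM in normal culture, a difference of -1.11 (limma, adjusted p = 3.15e-05). It belongs to the list of hypoxia and glycolysis genes, of which 13 of 37 had a more negative difference in co-culture and 1 a more positive one (median -0.27, all tested genes 0.03), and 21 on the compared groups alone. In the other direction, the fall of the cell cycle genes was smaller in co-culture. Of the DNA replication genes 21 of 31 differed, all positively (median 0.51), and of the mitosis genes 23 of 25 (median 0.72). Birc5, which encodes survivin, stood at 14.7 ± 1.29 and 27.4 ± 1.46 FPKM with and without IL-1β in co-culture, against 7.78 ± 1.75 and 30.6 ± 2.89 in normal culture. Mcm3 stood at 5.96 ± 0.198 and 17.3 ± 0.494, against 3.28 ± 0.581 and 19.3 ± 0.367 FPKM. Here the treated level was the one that differed more between cultures, with differences of 1.01 for Birc5 and 0.86 for Mcm3. 13 of 32 unfolded protein and ATF4 genes also differed positively and none negatively (median 0.14), Slc7a5 by 0.76 and Trib3 by 0.69. Sfrp2 differed by 1.22: its untreated level was 109 ± 1.19 FPKM in co-culture against 276 ± 9.91 in normal culture and its treated levels were 18.7 ± 0.544 and 20.3 ± 1.23 FPKM (limma, adjusted p = 0.00906 or lower). IL-1β passed for 67.5% of tested genes in normal culture. In 19 of the 12178 tested genes it acted in opposite directions in the cultures, past the threshold in each. The difference also passed in all 19, which 2 opposite calls make likely.

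How far the response depended on time was tested as the IL-1β difference at 36 h minus that at 72 h in co-culture, which passed for 3513 genes (28.8%), 1799 (14.8%) more positive and 1714 (14.1%) more negative at 36 h. In 339 of the 12178 tested genes IL-1β acted in opposite directions at the 2 times, past the threshold at each and with the difference past it. One was Il1r1, lower with IL-1β at 36 h as given above and higher by 0.15 at 72 h (limma, adjusted p = 0.0444), a difference of -0.82 (limma, adjusted p = 1.56e-07). The most negative values among named genes belonged to acute phase, protease and cytokine genes whose untreated levels were higher at 36 h than at 72 h. Lcn2 stood at 2752 ± 48.2 against 147 ± 1.32 FPKM with and without IL-1β at 36 h, and at 2164 ± 199.8 against 1.73 ± 0.606 FPKM at 72 h. Mmp13 stood at 428 ± 43.9 against 233 ± 8.2 FPKM at 36 h and 293 ± 10.2 against 11.2 ± 1.95 FPKM at 72 h. In both genes the treated levels were lower at 72 h than at 36 h, and the untreated levels were lower still relative to 36 h, which gave differences of -5.44 ± 0.17 and -3.73 ± 0.20 (log2, SE; limma, adjusted p = 5.21e-16 and 4.67e-12). Saa3 (-4.74), Mmp3 (-4.58), Il6 (-3.77) and Hp (-2.98) belonged to the same group, and of the acute phase list 15 of 19 tested genes were more negative at 36 h and none more positive (median -1.41, all tested genes 0). Hypoxia and glycolysis genes were more negative in 32 of 37 cases (median -0.68), where 32 rose at 72 h (18.5% of all tested genes, among 49.1% that passed there) and 7 at 36 h. Skeletal muscle markers were more negative in 11 of 15 (median -0.71).

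**Figure D5:**
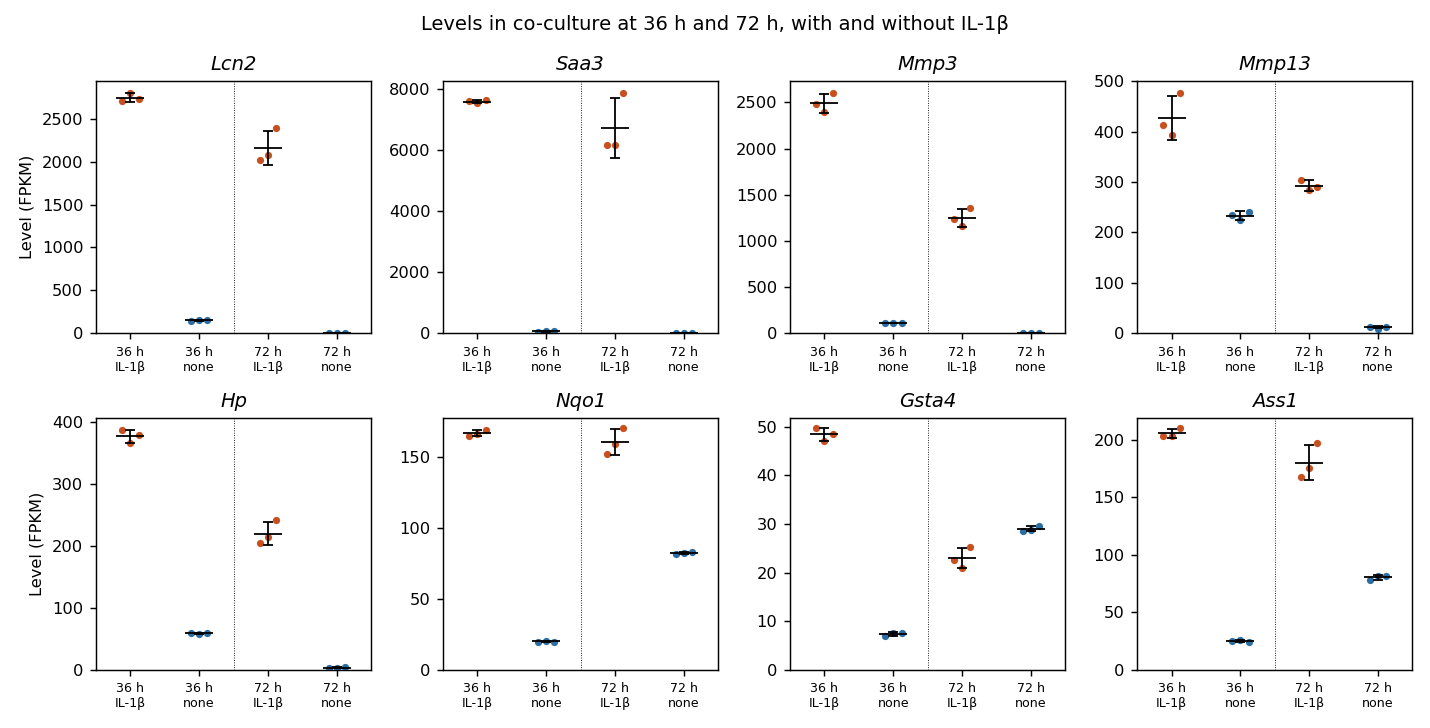
Levels in FPKM of 8 genes in co-culture at 36 h and 72 h, each time with IL-1β (orange) and without (blue). Points are libraries, and bars the mean ± SD of 3. Lcn2, Saa3, Mmp3, Mmp13 and Hp have lower untreated levels at 72 h, and Nqo1, Gsta4 and Ass1 have higher ones.

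Genes with a larger rise at 36 h included those of oxidative defence. Of the NRF2 and antioxidant genes 16 of 28 were more positive at 36 h and 2 more negative (median 0.35), and of the p53 genes 14 of 24 and 5 (median 0.37). Nqo1 stood at 167 ± 2.13 against 19.9 ± 0.463 FPKM with and without IL-1β at 36 h, and at 160.4 ± 9.02 against 82.2 ± 0.433 FPKM at 72 h. Gsta4 stood at 48.4 ± 1.29 against 7.34 ± 0.433 FPKM at 36 h and 23 ± 2.13 against 29 ± 0.533 FPKM at 72 h. The rise of Nqo1 was thus smaller at 72 h and Gsta4 fell there by 0.33, with differences between the times of 2.05 and 2.89 (limma, adjusted p = 1.66e-14 or lower). Among cartilage genes the difference was 0.30 for Col2a1 (limma, adjusted p = 0.00348), and that of Acan, 0.40, did not pass (limma, adjusted p = 0.0917, and 0.0166 without replicate 1 of the treated group at 72 h). The IL-1β-treated co-cultures at 72 h were more variable than the other co-culture groups, their residual SD being 0.119 in log2 units, against 0.0877 in untreated co-cultures at 72 h and 0.0886 in treated and 0.0853 in untreated co-cultures at 36 h. The IL-1β-treated normal cultures at 72 h, which entered the fit but no comparison, had the largest residual SD of all groups, 0.1675.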

How the data were processed

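RNA sequencing of poly(A) RNA gave 1 table of 17094 genes in 24 libraries, deposited by the authors in FPKM, per the file headers. Its genome build is GRCm38, per the submitters' processing notes; aligner, counter and annotation are not given in the sources used here. Read depth is unknown, since low FPKM values fell within 0.05 of whole multiples of a unit in 8.34% of cases (10% by chance), so no counting error is given. Genes with at least 1 FPKM in at least 3 libraries (12178) were analysed as log2(FPKM + 1) in limma 3.58.1 (R 4.3.3), with 1 mean per group over all 24 libraries, an intensity trend in the variance and Benjamini-Hochberg adjustment at 0.05. The IL-1β difference in co-culture at 36 h and its differences from those in normal culture at 36 h and in co-culture at 72 h were contrasts of this fit, which was tested on simulated data. With 3 libraries against 3 an exact permutation test cannot go below a p of 0.1, so genes were tested in limma across all genes.

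Alternatives were log2(FPKM + 0.1), no filter, a filter at 5 FPKM, TPM and median-of-ratios scaling, the compared groups alone, the replicate number as a block, and leaving out single libraries. Genes named were a core set, the 12 most raised and lowered, up to 4 raised members, 4 lowered members and 4 that missed the threshold in each of 50 lists, the 4 most expressed markers of each cell type, and up to 8 genes in each direction of each difference. Tnfaip3, Nfkb1, Nfkb2, Il6ra, Cntfr, Hmox1, Isg15 and untested markers were named outside this rule after their values were seen. The lists and genes were chosen with earlier results of these data known. Figures were drawn with matplotlib 3.10.9 in Python 3.11.15.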

Additional observations from a re-analysis of the deposited data

Results flagged for a closer look

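The IL-1β difference in co-culture at 36 h was tested directly against that in normal culture at 36 h and against that in co-culture at 72 h, and the named genes below differed by at least 1 on the log2 scale at an adjusted p under 0.05 in limma. Against normal culture, the highest adjusted p was 0.016. Negative values were -2.27 for Ptgs2, -1.38 for Lif, -1.33 for Tnfrsf9, -1.21 for Nos2 and -1.02 for Atf3, a stress transcription factor. Atf3 stood at 5.48 ± 0.219 and 5.82 ± 0.284 FPKM with and without IL-1β in co-culture, against 7.45 ± 0.784 and 3.39 ± 0.337 in normal culture (SD, n = 3). The difference was -1.11 for Egln3, -1.04 for Cck, the cholecystokinin gene, and -1.01 for Dkk2, a WNT antagonist. Positive values, where the fall was smaller in co-culture, were 1.22 for Sfrp2, 1.14 for Igfbp3, an IGF-binding protein, 1.16 for Gins1, of the replicative helicase, 1.01 for Birc5 and 1.08 for Msmp. That of Msmp missed the threshold without replicate 1 of the treated co-cultures (adjusted p 0.0558), without replicate 1 of treated normal culture (0.0588), in TPM (0.186) and as log2(FPKM + 0.1) (0.656).

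Against 72 h, the highest adjusted p was 0.0134. Negative values were -5.44 for Lcn2, -4.74 for Saa3, -2.98 for Hp and -3.08 for Steap4. They were -4.58 for Mmp3 and -3.73 for Mmp13, -3.77 for Il6, -2.63 for Nos2, -2.003 for Cxcl1 and -1.04 for Cxcl2. Steap4 stood at 25.7 ± 0.663 against 22.7 ± 0.646 FPKM with and without IL-1β at 36 h, and at 16 ± 1.44 against 0.783 ± 0.212 FPKM at 72 h (SD, n = 3). Egln3 differed by -2.33, and the lowered genes Penk by -2.81, Msmp by -1.88, Igfbp3 by -1.86, Chl1, a neural adhesion molecule, by -1.53, Scrg1 by -1.27, Scara5 by -1.17, Ecrg4 by -1.01 and Cnmd by -1.01. Positive values were 2.89 for Gsta4, 2.27 for Perp, a p53 target in desmosomes, and 2.27 for Klk10, a kallikrein protease. They were 2.08 for Cox6b2, 2.05 for Nqo1, 1.97 for Ano3, 1.93 for Ltc4s, the leukotriene C4 synthase, 1.84 for Ass1, 1.12 for Dkk2, 1.06 for Ccl5 and 1.00 for Mmp9. Perp stood at 1.18 ± 0.0611 against 0.42 ± 0.0656 FPKM at 36 h and 1.21 ± 0.211 against 5.95 ± 0.757 FPKM at 72 h. As log2(FPKM + 0.1) the differences of Msmp, Ccl5, Mmp9, Cnmd and Scrg1 missed the threshold (adjusted p = 0.475, 0.398, 0.179, 0.303 and 0.297), and that of Ccl5 also did in TPM (0.0834).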

How the results depend on the processing

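None of the differences of named genes changed direction past the threshold under any alternative run. Counts were checked for size only, and the balance of a list could turn. Of the interferon-stimulated genes 3 were higher and 4 lower, but 5 higher and 4 lower with median-of-ratios scaling. As log2(FPKM + 0.1), genes changed at least 2-fold in co-culture at 36 h numbered 568 higher and 394 lower, those that differed from normal culture 50 positive and 24 negative, and those that differed from 72 h 218 positive and 249 negative; more low genes pass 2-fold with a smaller pseudocount. In TPM, 350 were at least 2-fold lower, 20 positive against normal culture and 146 positive against 72 h. With only the compared groups or only 36 h libraries in the fit (a choice made after seeing the data), 1176 genes were more positive and 617 more negative in co-culture than in normal culture. Leaving out single libraries gave 4 to 11 genes at least 2-fold positive in that difference, with 8 without replicate 1 of treated co-cultures, 11 without replicate 2 of treated normal culture and 10 without replicate 2 of untreated normal culture. Of 583 differences of named genes, 12 lost and 31 gained their call in TPM, 10 lost and 2 gained as log2(FPKM + 0.1), and 1 lost and 73 gained with the compared groups alone; the causes were not tested.

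Replicate numbers are shared by the groups. Deviations of same-numbered treated and untreated co-cultures correlated at 0.03, -0.05 and 0.03, and 1 of the 3 treated libraries correlated best with its own number. Those of treated co-cultures and treated normal cultures at 36 h correlated at 0.06, 0.03 and 0.16, and replicates 2 and 3 matched their own number best. In the other pairs of groups checked none did. The labels do not say that the numbers pair libraries, so they were not used as pairs. With the replicate block over all libraries, 2856 genes were higher and 4293 lower, and with the block on the compared groups alone 1194 were more positive and 632 more negative than in normal culture. Without read counts, the precision of values below 1 FPKM could not be set, and the list counts shrank where the filter at 5 FPKM left fewer genes, as for CC chemokines (6 higher) and WNT genes (9 lower).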
